A study of Mus musculus with 40 samples.

Results

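The RNA of 9 genes that interferon is known to switch on was followed in the livers of mice that lack Nampt in hepatocytes. These genes, Ifit1, Ifit2, Ifit3, Isg15, Irf7, Oasl1, Oas1a, Usp18, and Rsad2, were taken by symbol, and their measured values were not part of the rule. All 9 were present among the 55487 genes of the count table, and all 9 were among the 20297 genes left by the filter on low counts. Averaged over the 4 days studied, Oas1a, Ifit2, and Oasl1 were higher in the knockout by log2 fold changes of 0.41 (SE 0.11), 0.30 (SE 0.09), and 0.33 (SE 0.11). The other 6 genes did not pass the test in that average, in which 36.4% of all tested genes were called, so that 3 of 9 is near the share of all genes. Ifit1 was lower in knockout livers of day 12, with -0.74 on the log2 scale (SE 0.16), and Ifit1, Ifit2, Ifit3, and Isg15 were lower at day 12 than at day 3 in knockout livers, where 0.754% of all genes were lower. Without 1 library the call of Isg15 was lost in 8 of 38 fits and those of Ifit2 and Ifit3 in 1 each. In WT livers the estimates of all 9 genes from day 3 to day 12 were also below 0. Those of Ifit1, Oasl1, Usp18, and Rsad2 rose above 0 when single livers were left out. The interaction of genotype and day was called for 0 of the 9 and for 0% of all genes, so that it tells nothing particular about these genes.

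Type I interferons bind a receptor that activates JAK kinases, and a complex of transcription factors then binds short repeats of GAAA in the promoters of the target genes. The products block viral RNA and protein synthesis, tag proteins with the ubiquitin-like ISG15, or damp the signal again. In liver, hepatocytes and the macrophages that line the sinusoids both respond to interferon, and the genes are often read as a sign of it.

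Hepatocyte-specific Nampt knockout (HNKO) mice carry floxed Nampt alleles and Cre recombinase under the albumin promoter, so that endothelial, stellate, and immune cells of the liver keep the gene. They were compared with WT littermates, and all mice were females with the strain background C57BL/6JBomTac. Both genotypes received a purified control diet (PD) from 9 weeks of age for 3, 6, 12, or 21 days, and the sample labels list the same numbers as ages. RNA of whole liver was depleted of rRNA and sequenced, with 1 library per mouse. At day 3 there were 5 WT and 5 HNKO libraries, at day 6 there were 4 and 5, at day 12 there were 5 and 6, and at day 21 there were 5 and 3. Libraries 17 and 18 of the HNKO group at day 21 failed quality control according to the labels and were left out, which gave 38 libraries.

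The 38 libraries held 16151037 to 64181492 counts each (median 26466478.5). Alb, the main hepatocyte product, had a mean level of 16.30 log2 CPM (CPM are counts scaled to a common library size, here with a prior count of 2 before the log) in these whole-liver samples. Nampt ranged from 5.84 to 7.28 log2 CPM in WT and from 4.92 to 6.36 in HNKO livers, and within a day the genotypes overlapped only at day 6, where HNKO library 7 had 6.36 and the lowest WT library 5.99. Its log2 fold change was -0.93 (SE 0.23) at day 3, -0.90 (SE 0.24) at day 6, and -0.82 (SE 0.22) at day 12, with edgeR adjusted p of 0.0193, 0.0128, and 0.0208. At day 21 it was -0.69 (SE 0.27), with an adjusted p of 0.161. Library numbers run through all days in 2 series, 1 to 21 and 22 to 41, and all 3 HNKO libraries of day 21 that were used are from the second. In bulk tissue a lower level of a transcript can mean fewer cells of a type or less RNA per cell, and these cannot be told apart here.

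The promoters of the genes were searched for what they share outside the choice by symbol. RefSeq promoters (GRCm38.p6), which run from 250 bases before to 50 bases after the start site, were found for 8 of the 9 genes, all but Usp18. The core of the interferon-stimulated response element, searched on both strands as GAAA, any 2 bases, and GAAA again, was present in those of 5 genes, Ifit1, Ifit3, Isg15, Oas1a, and Rsad2, and in 1131 of 32851 promoters of all genes (3.44%). The STAT site, searched as TTC, any 3 bases, and GAA, which reads the same on both strands, was present in Oas1a, in 1 of the promoters listed for Ifit2, and in 8.3% of all promoters, and none of its matches overlapped a GAAA repeat. No match was found within these windows for Irf7 or Oasl1. Windows of 60 bases are printed to show where the repeats sit, with the matches in capitals, in the direction of transcription. They are chr19:34640769-34640828 (plus strand) for Ifit1, chr19:34583365-34583424 (plus) for Ifit3, chr4:156200856-156200915 (minus) for Isg15, chr5:120907526-120907585 (minus) for Oas1a, and chr12:26456538-26456597 (minus) for Rsad2.
Ifit1: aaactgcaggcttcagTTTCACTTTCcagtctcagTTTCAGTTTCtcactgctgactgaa
Ifit3: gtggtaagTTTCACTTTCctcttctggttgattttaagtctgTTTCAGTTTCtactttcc
Isg15: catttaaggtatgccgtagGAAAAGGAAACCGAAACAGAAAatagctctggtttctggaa
Oas1a: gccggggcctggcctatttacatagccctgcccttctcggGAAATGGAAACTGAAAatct
Rsad2: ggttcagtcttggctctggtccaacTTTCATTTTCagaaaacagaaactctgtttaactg

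The repeats of Ifit1 and Ifit3 have the same letters, TTTCACTTTC and TTTCAGTTTC, on the reverse strand, and they start at positions -104 and -85 from the start site in Ifit1 and at -156 and -122 in Ifit3. Isg15 held 3 overlapping matches and Oas1a held 2, all on the forward strand, and those of Oas1a end at position -5. A match describes the letters only.

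Ifit2 (chr19:34550694-34576419), Ifit3 (chr19:34583531-34588731), and Ifit1 (chr19:34640871-34650009) lie within one stretch of the plus strand of GRCm38, whereas Oasl1 (chr5:114923240-114937915) and Oas1a (chr5:120896256-120907521) share a chromosome. Isg15 (chr4:156199424-156200818), Irf7 (chr7:141262706-141266481), Usp18 (chr6:121245906-121270917), and Rsad2 (chr12:26442746-26456452) lie elsewhere. Of the stretches of 51 bases in their transcripts, the length of a read, 57% of those of Oas1a also occur in other genes, mainly Oas1g and Oas1b, and 50.8% of those of Ifit3 occur in Ifit3b. The share was 7.02% for Ifit1, 3.68% for Isg15, 2.77% for Usp18, and 0 for the other 4 genes. How reads of such copies were divided is not stated, so the values of Oas1a and Ifit3 are the least certain. Irf7 overlaps Phrf1 on the opposite strand over 45 bases, and the use of strand in counting is not stated either.

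Levels between genes were compared per length, as CPM per kilobase of exons, with the exons of all annotated transcripts merged. For Irf7 these cover the whole gene, 3776 bases without a gap, so that its value is per kilobase of gene and its place in the order is uncertain. In 19 WT livers Ifit3 had 13.4 ± 2.72 CPM per kilobase (SD), Irf7 11.9 ± 2.41, Isg15 8.82 ± 2.15, Usp18 8.36 ± 1.54, and Ifit1 7.74 ± 1.95. Oasl1 followed with 5.29 ± 1.36, Rsad2 with 4.71 ± 1.55, Ifit2 with 3.56 ± 0.824, and Oas1a with 2.27 ± 0.591. Of the 8 pairs of neighbours in this order, 5 were closer than the larger SD of the pair, so that Ifit3 and Irf7, Isg15, Usp18, and Ifit1, and Oasl1, Rsad2, and Ifit2 form runs without a clear order. These values pool the 4 days. Ifit1 (2656 bases) had 23.3 ± 4.26 CPM in WT livers at day 3 (n = 5) and 15.3 ± 0.959 at day 21 (n = 5), and Usp18 (2790 bases) had 22.3 ± 3.74 and 24.7 ± 5.13, so that at day 21 these neighbours were apart by more than their SD. In 19 HNKO livers Irf7 (13.2 ± 3.27) stood above Ifit3 (12.1 ± 2.86), and again 5 of 8 neighbours were within that spread. Counts ranged from 56 for Oas1a to 2643 for Irf7 in single libraries, so that no member was near 0 in any of the 38 livers.

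**Figure D1:**
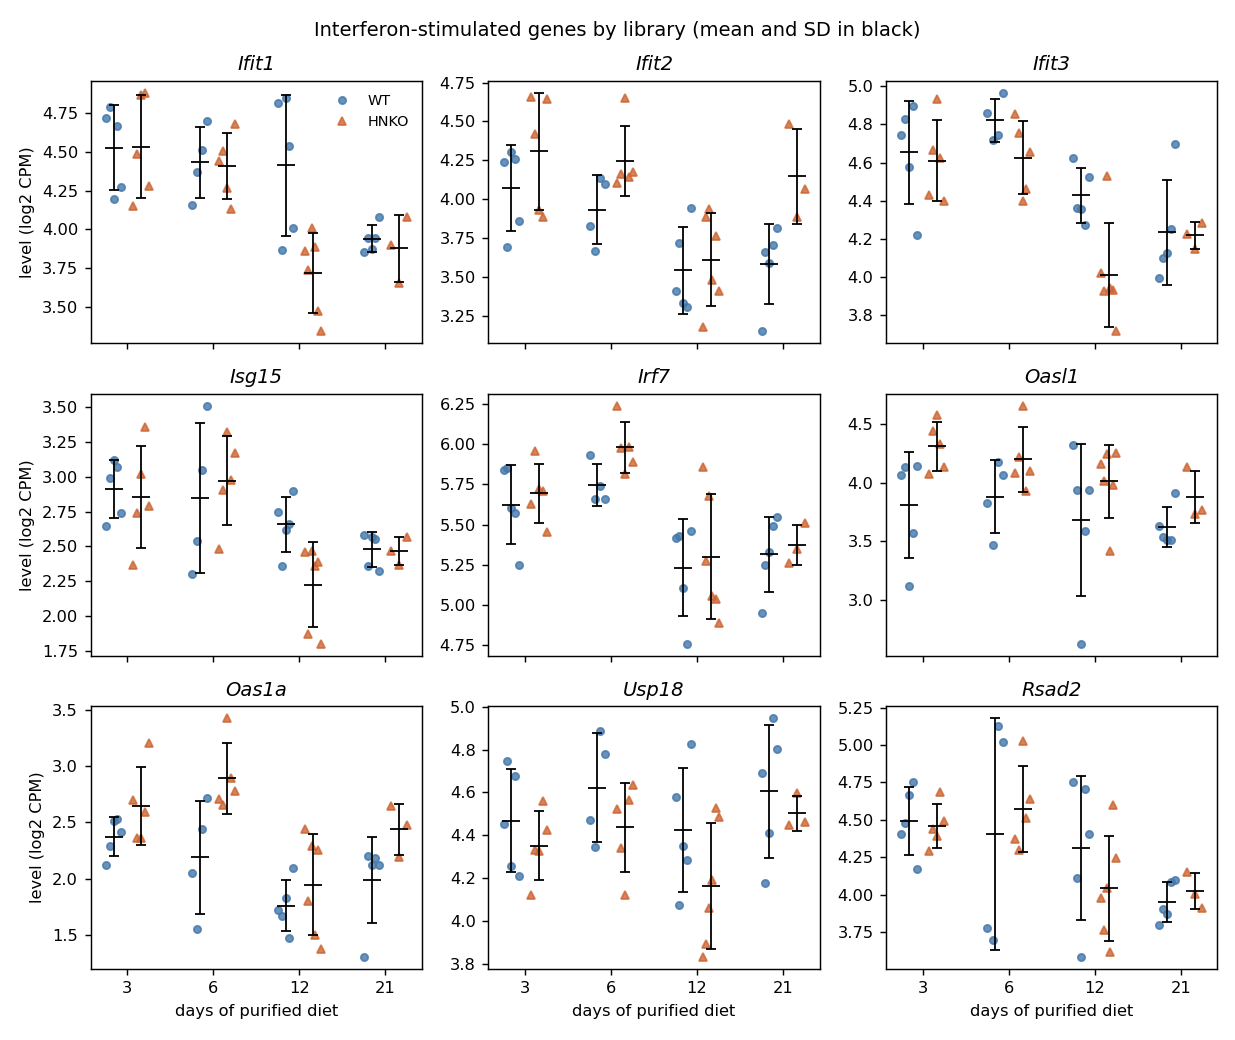
Level of each gene in log2 CPM (vertical axes, scaled separately for each gene) by days of purified diet (horizontal axis), with 1 point per library, circles for WT and triangles for HNKO, and the group mean and SD as black bars. WT and HNKO points overlap in nearly every panel and day, Ifit1 is low in HNKO livers at day 12, and the 3 HNKO points of Ifit2 at day 21 lie above all WT points of that day.

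The question put to the genes was whether their RNA differed between HNKO and WT livers at each day of diet. At day 3, 0 of the 9 passed edgeR's quasi-likelihood test at an adjusted p under 0.05, where 4.66% of all tested genes did (2.95% higher and 1.71% lower in HNKO). DESeq2 also called 0, and 1 gene, Oasl1, had an unadjusted p under 0.05. At day 6, 1 of 9 was called (Oas1a, higher), against 12.8% of all genes (8.42% higher and 4.37% lower). At day 12, 1 of 9 was called (Ifit1, lower), against 7.82% (4.56% higher and 3.27% lower). A single call among 9 genes is near these shares. At day 21, 0 of 9 were called by edgeR and 0 by DESeq2, against 3.12% of all genes (2.21% higher and 0.916% lower), and 1 (Ifit2) had an unadjusted p under 0.05. The median change of the 9 genes, HNKO against WT on the log2 scale, was 0.01, 0.07, -0.26, and 0.05 at days 3, 6, 12, and 21, and that of all genes lay between -0.01 and 0.01. The average over the 4 days called 3 of 9, all higher, against 36.4% of all genes (19.2% higher and 17.3% lower). Medians in that average were -0.06 for the 9 genes and -0.01 for all. Libraries of the genotypes were fully separated for 1 of the 9 genes at 1 of the days, Ifit2 at day 21 (higher in HNKO). Of all genes, 2.31% and 1.8% were separated upward and downward at day 3, 8.08% and 4.68% at day 6, 2.65% and 2.14% at day 12, and 7.25% and 6.7% at day 21.

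**Figure D2:**
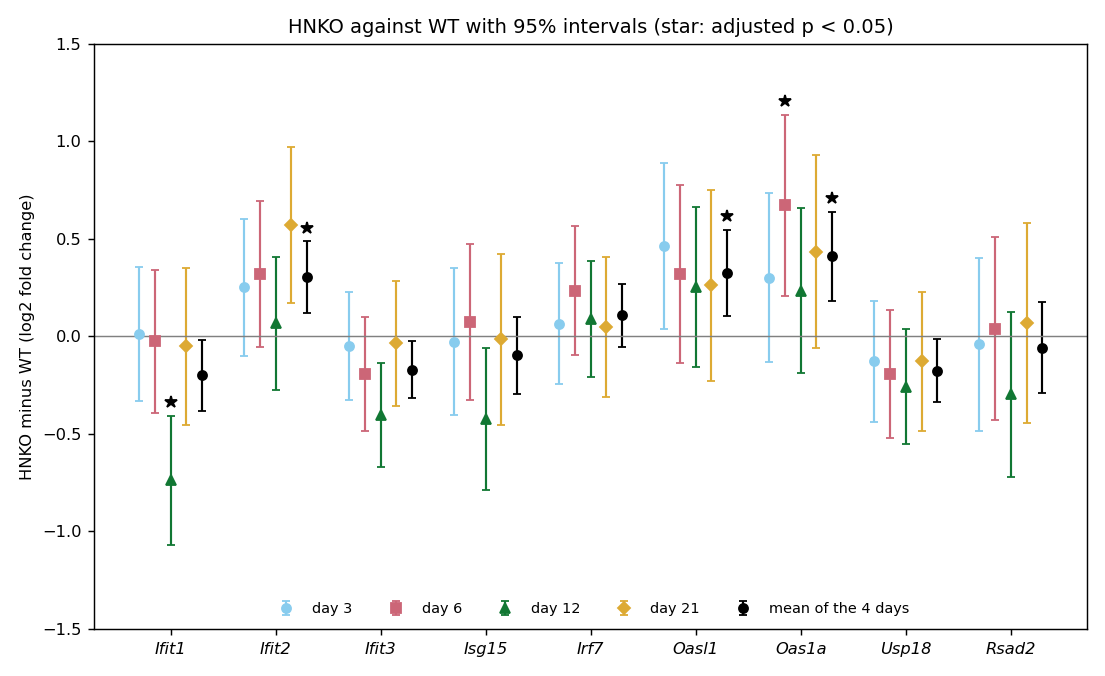
Log2 fold change of HNKO against WT (vertical axis) for each gene (horizontal axis) at days 3, 6, 12, and 21 and for the mean of the 4 days, with 95% intervals, and stars where the adjusted p is under 0.05. Stars stand over Oas1a at day 6, Ifit1 at day 12, and Ifit2, Oasl1, and Oas1a in the mean of the 4 days, and 4 of these 5 stars are over values above 0.

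Ifit1, Ifit2, and Ifit3 encode proteins with tetratricopeptide repeats that bind foreign RNA. Ifit1 was called at day 12. The 5 WT livers of day 12 had 3.87, 4.01, 4.54, 4.82, and 4.85 log2 CPM, and the 6 HNKO livers ran from 3.34 over a median of 3.80 to 4.01. Of the 6 HNKO livers, 4 were below every WT liver, and the others overlapped the lowest WT livers, 15 and 34. HNKO stood at -0.74 on the log2 scale against WT (SE 0.16, edgeR adjusted p = 0.00665), and the difference of mean log2 CPM gave p = 0.0108 by an exact permutation test, two-sided, the smallest possible being 0.00216. Within the library series the difference was -0.64 and -0.71. The call held with each of the 38 libraries left out (edgeR adjusted p 0.00463 to 0.0256) and in 9 other settings (0.00116 to 0.0498).

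At days 3, 6, and 21 the log2 fold changes of Ifit1 were 0.01 (SE 0.17), -0.03 (SE 0.18), and -0.05 (SE 0.20). Their sign changed in 4, 3, and 1 of the fits without 1 library. The interaction of genotype and day gave Ifit1 an edgeR unadjusted p of 0.00775 and an adjusted p of 0.915, so that day 12 was not shown to differ from the other days. Of 8 markers of recruited monocytes or macrophages, 3, 7, 4, and 3 were higher in HNKO livers at days 3, 6, 12, and 21. Of all genes, 2.95%, 8.42%, 4.56%, and 2.21% were higher at these days, and 3.27% were lower at day 12. The summed level of these 8 markers at day 12 was 112.1 to 205.6 CPM in HNKO against 76.7 to 117.2 in WT livers. At that day 0 of 7 hepatocyte markers passed the test (101200 to 130100 against 117800 to 153800). Also at day 12, 3 of 5 cholangiocyte or progenitor markers were higher (104.9 to 216.6 against 39.1 to 43.9), 2 of 5 sinusoidal endothelial markers, Kdr and Oit3, were lower (421.9 to 470.7 against 437.9 to 549.4), and of 5 stellate cell markers Des was higher and Reln lower (407.5 to 517.3 against 467.7 to 549.2). Their part in the level of Ifit1 was not tested.

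Ifit3 lay just outside the threshold at day 12. WT livers had 4.27, 4.35, 4.36, 4.52, and 4.62 log2 CPM, and HNKO livers ran from 3.71 over a median of 3.93 to 4.53, so that 5 of 6 HNKO livers were below every WT liver and library 13 was not. The log2 fold change was -0.40 (SE 0.13, 95% interval -0.67 to -0.14, edgeR adjusted p = 0.0513), and the exact permutation test gave p = 0.0152. The adjusted p was 0.0143 without library 13, 0.0442 without library 4, 0.0403 without library 26, and 0.0389 without library 41, and it was 0.0421 with DESeq2, 0.0488 with the edgeR 4 computation, and 0.0451 with the library series as a covariate. Over all alternatives it ran from 0.0143 to 0.119. Its near copy Ifit3b was lower at day 12, with -0.66 on the log2 scale (SE 0.15, edgeR adjusted p = 0.00973).

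The estimates of Ifit2 were above 0 at all 4 days, but at day 12 the value of 0.07 ran from -0.0037 without library 13 to 0.18 without library 34. At day 21 the 5 WT livers had 3.15, 3.59, 3.66, 3.71, and 3.82 log2 CPM, and the 3 HNKO livers had 3.88, 4.07, and 4.49, without overlap. The log2 fold change was 0.57 (SE 0.20, 95% interval 0.17 to 0.97, edgeR adjusted p = 0.0994), and the exact permutation test gave 0.0179, the smallest p that these group sizes allow. With the failed libraries included the edgeR adjusted p was 0.0226, and with 1 library left out it ran from 0.0588 to 0.684. At day 21, 3 of 8 monocyte or macrophage markers were higher in HNKO livers (summed level 140.4 to 259.7 CPM against 79.1 to 132.1), against 2.21% of all genes. Library 37, with the highest Ifit2 of these 3 livers, had the highest monocyte or macrophage (259.7 CPM), neutrophil (5.71), and plasmacytoid dendritic cell markers (14.2) and the lowest hepatocyte markers (88400), and their part in the level of Ifit2 was not tested. At day 6 the 4 WT livers had 3.67, 3.83, 4.10, and 4.13 log2 CPM and the 5 HNKO livers had 4.10, 4.14, 4.16, 4.17, and 4.65, so that 4 of 5 HNKO livers were above every WT liver (log2 fold change 0.32, SE 0.18, adjusted p = 0.273 by edgeR, and p = 0.0238 by the exact permutation test). Averaged over the days Ifit2 was 0.30 higher on the log2 scale (SE 0.09, 95% interval 0.12 to 0.49, edgeR adjusted p = 0.00837). It was higher in 6 of 7 comparisons within a day and library series, and the call held without each of the 38 libraries (adjusted p 0.00367 to 0.0257).

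Oas1a and Oasl1 belong to the oligoadenylate synthase family. The product of Oas1a senses double-stranded RNA and makes the messenger that activates RNase L, whereas the product of Oasl1 lacks this activity and is known to restrain translation of Irf7 RNA. At day 6 Oas1a had 1.56, 2.05, 2.44, and 2.71 log2 CPM in WT and 2.65, 2.71, 2.78, 2.89, and 3.42 in HNKO livers. The lowest HNKO livers reached into the range of the highest WT livers, and 3 of 5 HNKO livers were above every WT liver. The log2 fold change was 0.67 (SE 0.23, edgeR adjusted p = 0.0471), and the exact permutation test gave p = 0.0238. Within the library series the difference was 0.87 and 0.45.

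That call was narrow. Oas1a lost it at day 6 when any of 20 of the 38 libraries was left out, with an edgeR adjusted p of 0.135, 0.197, 0.0572, 0.19, and 0.0565 without libraries 8, 10, 27, 29, and 30 of day 6, and of 0.0501 to 0.0537 without libraries 1, 2, 5, 12, 14, 15, 16, 20, 21, 22, 25, 26, 33, 39, or 41 of the other days. It also lost it with no filter (0.0644), with all 40 libraries (0.138), and with only the 2 groups of day 6 (0.114), and with 1 library left out the adjusted p ran from 0.0225 to 0.197. Library 29, with the highest Oas1a, also had the highest summed monocyte or macrophage markers of its group (480.7 CPM), and the part of such cells was not tested. The average over the days was firmer, at 0.41 (SE 0.11, 95% interval 0.18 to 0.64, edgeR adjusted p = 0.00394), and that call held without each of the 38 libraries (0.00152 to 0.00935) and in 8 other settings (0.00107 to 0.00489). Oas1a was higher in 6 of 7 comparisons within a day and library series. Of the genes it shares sequence with, Oas1g was higher in the average by 0.42 on the log2 scale (SE 0.11, edgeR adjusted p = 0.0035), and Oas1b had a value of 0.06 (SE 0.10, 0.638).

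Oasl1 passed the test only in the average over the days, where it was 0.33 higher on the log2 scale (SE 0.11, 95% interval 0.10 to 0.55, edgeR adjusted p = 0.0189). At day 3 WT livers had 3.12, 3.57, 4.07, 4.14, and 4.15 log2 CPM and HNKO livers had 4.08, 4.13, 4.33, 4.45, and 4.58. Thus 3 of 5 HNKO livers were above every WT liver, and 2 WT livers were well below the rest. At day 3 the log2 fold change stood at 0.46 (SE 0.21, edgeR adjusted p = 0.195, exact permutation p = 0.0556), with values of 0.32, 0.25, and 0.26 at days 6, 12, and 21. Single livers moved the later values, to 0.20 without library 10 or 0.21 without library 29 at day 6, to 0.07 without library 16 or 0.43 without library 14 at day 12, and to 0.14 without library 37 at day 21. Within each day and library series the difference was above 0 in 7 of 7 comparisons, from 0.11 to 0.62. The call in the average held without each of the 38 libraries (adjusted p 0.0065 to 0.0449).

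Rsad2 encodes viperin, an enzyme that makes a chain-terminating nucleotide, and its SD between WT livers of day 6, 0.77 log2 CPM, was the largest of the 9 genes in any group. At day 6 WT livers 8 and 10 had 3.78 and 3.70 log2 CPM and WT livers 27 and 28 had 5.13 and 5.02, and the 5 HNKO livers ran from 4.30 to 5.03. The low WT livers are of the first library series and the high ones of the second, and the HNKO livers overlapped the high ones only. Within the series the difference between HNKO and WT at day 6 was 0.60 in the first and -0.35 in the second, with opposite signs. Against WT, HNKO livers had log2 fold changes of 0.04 (SE 0.23) at day 6, -0.30 (SE 0.21) at day 12, and -0.06 (SE 0.11, 95% interval -0.29 to 0.18) in the average, with edgeR adjusted p of 0.941, 0.4, and 0.739. The value of day 6 was -0.16 without library 10, -0.15 without library 8, -0.07 without library 29, and 0.29 without library 27, and that of day 12 ran from -0.43 without library 16 to -0.18 without library 14.

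Isg15 encodes the ubiquitin-like tag, and Usp18 the protease that removes it and also damps the interferon receptor. At day 12 Isg15 had 2.36, 2.62, 2.66, 2.75, and 2.90 log2 CPM in WT livers, and from 1.80 over a median of 2.37 to 2.47 in HNKO livers. Here 3 of 6 HNKO livers were below every WT liver, and library 15 was the lowest WT liver. The log2 fold change was -0.42 (SE 0.18, edgeR adjusted p = 0.134), and the exact permutation test gave p = 0.0238. At days 3, 6, and 21 it was -0.03, 0.07, and -0.02, and its sign changed in 5, 3, and 9 of the fits without 1 library. Usp18 had log2 fold changes of -0.13, -0.19, -0.26, and -0.13 at the 4 days and of -0.18 (SE 0.08, 95% interval -0.34 to -0.01, adjusted p = 0.0833) in the average, where it passed the test without library 20 (adjusted p = 0.0432) and with the library series as a covariate (0.0183), where all alternatives ran from 0.0183 to 0.176. None of the values of single days passed the test, and they were -0.05 without library 5 at day 3, -0.10 without library 29 or 27 at day 6, -0.14 without library 34 at day 12, and -0.04 without library 39 at day 21.

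Irf7 encodes the transcription factor that amplifies interferon production. Its log2 fold changes at days 3, 6, 12, and 21 were 0.06, 0.23, 0.09, and 0.05, and the average was 0.11 (SE 0.08, 95% interval -0.05 to 0.27, edgeR adjusted p = 0.306). Without 1 library the values of days 3, 12, and 21 fell as low as -0.02, -0.04, and -0.03, and the sign changed in 2 fits each. At day 6 WT livers had 5.66, 5.66, 5.74, and 5.93 log2 CPM and HNKO livers had 5.82, 5.89, 5.98, 5.98, and 6.24. Although 3 of 5 HNKO livers were above every WT liver, the exact permutation test gave p = 0.0556. In all, 36 such exact tests were made, 9 genes at 4 days, and their p-values are not adjusted.

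In the same average, Ifit1 had a log2 fold change of -0.20 (SE 0.09, edgeR adjusted p = 0.0767) and Ifit3 one of -0.17 (SE 0.07, adjusted p = 0.0605). Ifit1 passed the test without library 4 (0.0494), 15 (0.0338), 22 (0.0464), or 34 (0.0428), out of a range of 0.0338 to 0.203, and Ifit3 without library 4 (0.0306), 6 (0.0421), 13 (0.0149), 19 (0.0432), or 26 (0.025) and with all 40 libraries (0.0389), out of a range of 0.0149 to 0.149. The interaction of genotype and day was called for 0 of the 9 genes by edgeR and 0 by DESeq2, with 1 (Ifit1) at an unadjusted p under 0.05, and for 0% of all 20297 genes, so that no change between days was shown to differ between the genotypes.

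The levels were also compared between days within each genotype. In HNKO livers the day effect was called for 6 of 9 genes, Ifit1, Ifit2, Ifit3, Isg15, Irf7, and Oas1a (edgeR adjusted p 0.00232 to 0.0156), against 7.9% of all genes. In WT livers it was called for 1 of 9, Ifit3 (adjusted p = 0.0342), against 5.84% of all genes, whereas DESeq2 called 4 in WT and 6 in HNKO livers. The call of Ifit3 in WT livers was lost without library 1, 8, 15, 19, 20, 21, 25, 28, or 39 (adjusted p 0.0503 to 0.091). In HNKO livers the call of Oas1a was lost without library 29 (0.0503) and that of Isg15 with all 40 libraries (0.314), and Rsad2 gained one with the library series as a covariate (0.0438).

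Against day 3, 4 of 9 genes were lower in HNKO livers at day 12, where 0.754% of all genes were lower and 1.67% higher, with log2 changes of -0.83 (SE 0.16, adjusted p = 0.00475) for Ifit1, -0.72 (SE 0.17, 0.0151) for Ifit2, -0.59 (SE 0.13, 0.0116) for Ifit3, and -0.65 (SE 0.18, 0.0414) for Isg15 by edgeR. In WT livers the same changes were -0.08, -0.53, -0.24, and -0.25, and 0 of 9 genes were called (0.976% of all genes lower, 2.24% higher), with 3 at an unadjusted p under 0.05 (Ifit2, Irf7, and Oas1a). At day 21, Ifit1 was lower in WT livers, with a log2 change of -0.61 (SE 0.17, edgeR adjusted p = 0.0291), where 1.67% of all genes were lower and 3.28% higher. Ifit1 had been 4.20 to 4.79 log2 CPM in WT livers at day 3 and was 3.85 to 4.08 at day 21. These groups did not overlap, but how many of all genes were separated between them was not computed. In HNKO livers 0 of 9 were called at day 21 (1.25% lower and 1.18% higher), with 2, Ifit1 and Ifit3, at an unadjusted p under 0.05. At day 6, 0 of 9 were called in either genotype, with 0 at an unadjusted p under 0.05, where 0% of all genes in WT and, in HNKO livers, 0.168% were lower and 0.611% higher. The estimate was below 0 for all 9 genes at day 12 in both genotypes, and for 8 of 9 at day 21, Usp18 being the exception. In WT livers at day 12, Ifit1, Oasl1, Usp18, and Rsad2 had estimates above 0 without single livers, namely Ifit1 without library 15 (0.04) or 34 (0.02), Oasl1 without 16 (0.11) or 26 (0.0018), Rsad2 without 16 (0.02), and Usp18 without 5, 15, 25, or 33 (0.01 to 0.05).

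How these changes depend on single livers was computed after seeing them. Of the calls in HNKO livers at day 12, that of Ifit1 held without each of the 38 libraries, that of Ifit2 was lost without library 23 (edgeR adjusted p = 0.0651), and that of Ifit3 without library 4 (0.0507). The call of Isg15 was lost without library 3, 4, 12, 22, 23, 32, 35, or 36 (0.0544 to 0.147), with no filter (0.065), and with all 40 libraries (0.532). Oas1a gained a call without library 11 (0.0391), by DESeq2 (0.0322), and with the library series as a covariate (0.0453). The call of Ifit1 in WT livers at day 21 was lost without library 1, 5, 19, 21, 25, or 39 (0.0567 to 0.0867). DESeq2 called 0 of 9 at day 6 in either genotype, 1 in WT livers at day 12 (Ifit2, adjusted p = 0.0477), and 1 in HNKO livers at day 21 (Ifit1, 0.0268).

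The changes at the 3 later days share the day 3 libraries, and the HNKO livers of day 12 are also those in which Ifit1 was below WT. Immune cell markers changed between days too. A day effect was called for 2 of 8 monocyte or macrophage markers in WT and 4 of 8 in HNKO livers, against 5.84% and 7.9% of all genes. The summed level of the 8 markers was 136.4 to 175.8 CPM in WT livers at day 3 and 76.7 to 117.2 at day 12, without overlap. In HNKO livers it was 143.4 to 298.4 and 112.1 to 205.6. How many of all genes were separated between days 3 and 12 was not computed. The day effect was also called for 5 of 5 tested neutrophil markers in HNKO and 0 in WT livers. Of B cell markers it was called for 3 of 4 in WT and 0 in HNKO livers. Of the Kupffer cell markers, 3 of 5 (Cd5l, Clec4f, and Vsig4) had a day effect in each genotype. The summed level of these 5 was 330.7 to 482.7 CPM in WT livers at day 3 and 191 to 376.5 at day 12, and 326.6 to 507.2 and 238.1 to 548.2 in HNKO livers. Their part in the decline was not tested.

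**Figure D3:**
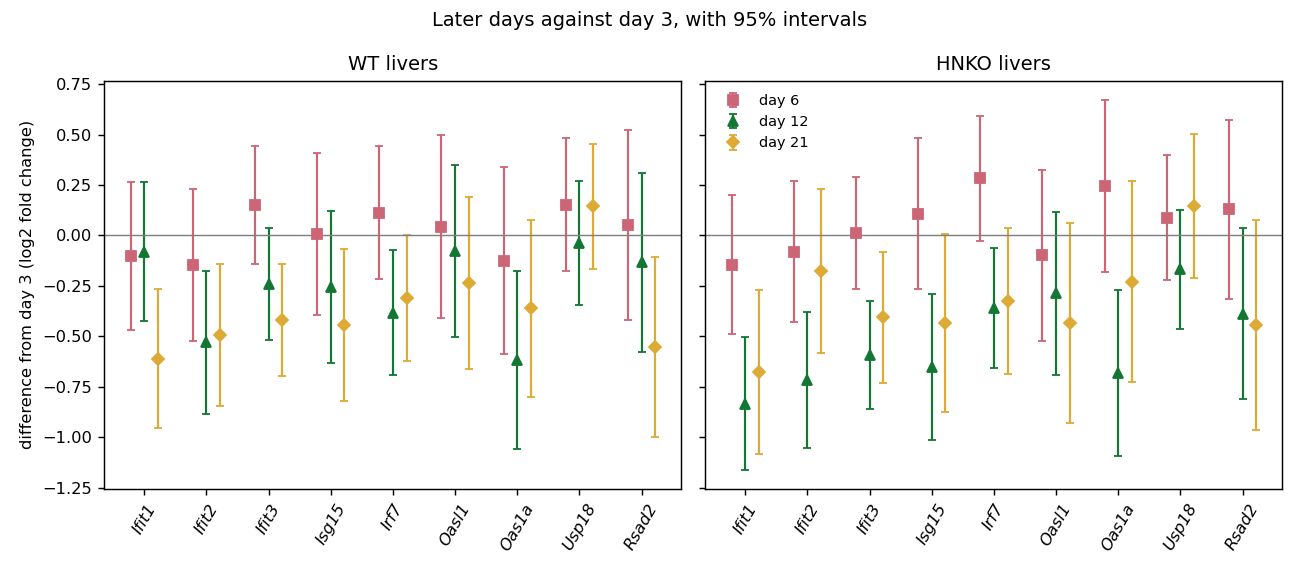
Log2 change from day 3 (vertical axis) of each gene (horizontal axis) at days 6, 12, and 21 in WT livers (left) and HNKO livers (right), with 95% intervals. The triangles of day 12 lie below 0 for all 9 genes in both panels, and Ifit1 at day 12 is at -0.83 in HNKO and -0.08 in WT livers.

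Between mice of one group the genes varied together only in part. Over 36 pairs, Pearson's r of the deviations from the group means in 38 libraries had a median of 0.15, ran from -0.32 (Ifit1 and Ifit2) to 0.67, and was above 0 in 31. By r, 3 pairs had a Benjamini-Hochberg adjusted p under 0.05, from 100000 permutations within groups. Ifit3 and Irf7 had r = 0.67 (permutation p = 6e-05, adjusted 0.00216) and Spearman's rho = 0.71 (permutation p = 1e-05, the smallest that these permutations give, adjusted 0.00036), and r = 0.62 without the 2 livers farthest from the median of Ifit3. Ifit2 and Oas1a had r = 0.57 (permutation p = 0.00077, adjusted 0.00924), rho = 0.58 (0.00071, adjusted 0.00852), and r = 0.51 without the 2 farthest livers. Ifit1 and Ifit3 had r = 0.55 (permutation p = 0.0002, adjusted 0.0036), rho = 0.59 (0.00025, adjusted 0.0045), and r = 0.625 without them. By rho, Isg15 and Rsad2 (0.56) and Usp18 and Rsad2 (0.53) also passed (adjusted permutation p = 0.032 for each), where by r both had 0.0795. The permutations did not keep the library series apart, and r within the series was not computed for these last pairs. Within the first library series (18 libraries) and the second (20), r was 0.41 and 0.60 for Ifit3 and Irf7, 0.17 and 0.84 for Ifit2 and Oas1a, and 0.53 and 0.50 for Ifit1 and Ifit3. The relation of Ifit2 and Oas1a was thus weak in the first series.

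The 10 genes most like the 9, by the mean of their r with each over 38 libraries, were Rnf213 (0.41), Cmpk2 (0.37), Dhx58 (0.37), Ifi44 (0.37), Xaf1 (0.35), Ttll12 (0.34), Slc34a2 (0.34), Trim30a (0.33), Gm9159 (0.33), and Oas3 (0.32). Of these, 7 are on the list of other type I interferon targets, and Ttll12, Slc34a2, and Gm9159 are on none. Among the 9 themselves, Rsad2 (0.30) and Ifit3 (0.28) had the highest mean r with the other 8 and Ifit2 (0.11) the lowest.

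The ligands of the pathway had few counts. Of 20 genes for type I and type III interferons, 12 had 0 counts in all 38 libraries. This allows a level of up to 0.00284 CPM (3 of 1054618479 counts, counting error only). Sequence shared between these genes was not searched, and how reads of copies were divided is not stated. Ifnb1, the first type I interferon made after infection, had 3 counts in all. Ifnk held 1247 of the 1263 counts of the family and was the only ligand tested, at 0.04 on the log2 scale (SE 0.21, edgeR adjusted p = 0.901) in the average over the days. Ifng, the type II interferon of T and NK cells, had 39 counts in 25 of the 38 libraries.

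Of 14 genes for receptors and JAK-STAT signalling, 1, 5, 3, and 0 were higher in HNKO livers at days 3, 6, 12, and 21, where 2.95%, 8.42%, 4.56%, and 2.21% of all genes were higher, and 0 were lower. In the average over the days, 19.2% of all genes were higher, and so were 4 of the 14. They were Ifnlr1 (type III interferon receptor, log2 fold change 1.56, SE 0.24), Ifngr1 (interferon gamma receptor, 0.43, SE 0.07), Il10rb, and Socs3 (feedback inhibitor, 1.31, SE 0.22). Ifnlr1 had a low mean level of -1.13 log2 CPM, where Ifngr1 had 4.88. The receptor of the type I interferons did not pass the test, with log2 fold changes of 0.01 (SE 0.03) for Ifnar1 and -0.10 (SE 0.06) for Ifnar2. Stat2 and Irf9, which carry the signal to the promoters, had -0.01 (SE 0.05) and -0.04 (SE 0.05), with edgeR adjusted p of 0.887 and 0.613.

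Of 14 nucleic acid sensors and adaptors, 6 were higher at day 6 (Cgas, Ikbke, Myd88, Tlr7, Tmem173, and Traf3), 1 at days 3 and 12 (Tmem173), and 0 at day 21, against 8.42%, 2.95%, 4.56%, and 2.21% of all genes at days 6, 3, 12, and 21. In the average 6 were higher and 3 were lower (Mavs, Tbk1, and Ticam1), where 19.2% of all genes were higher and 17.3% lower. Tmem173, which encodes the adaptor STING, was higher at days 3, 6, and 12 and had a log2 fold change of 0.76 (SE 0.08) in the average. The sensor gene Cgas had 0.62 (SE 0.17), and Ifih1, the sensor of long double-stranded RNA, had -0.03 (SE 0.04, adjusted p = 0.643). Of 8 interferon regulatory factors besides Irf7, Irf8, a factor of myeloid cells, was higher at days 6, 12, and 21, and in the average Irf8 (0.57, SE 0.07), Irf5, and Irf4 were higher and Irf3 lower (-0.23, SE 0.06).

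Of 56 tested other type I targets, a list that shares some genes with those above, among them Stat2, Irf9, Ddx58, Ifih1, and Dhx58, 9 were higher at day 6 (Ifi27l2a, Oas1g, Oas2, Oas3, Oasl2, Parp14, Rnf213, Trim30a, and Zbp1) and 0 lower, against 8.42% and 4.37% of all genes. At day 12, 0 were higher and 4 lower (Dtx3l, Eif2ak2, Ifit3b, and Parp9), against 4.56% and 3.27%. At day 3 only Dtx3l passed (lower, against 1.71%), and at day 21 only Ifi27l2a (higher, against 2.21%). In the average 13 were higher and 5 lower, against 19.2% and 17.3% of all genes, led by Ifi27l2a (0.75, SE 0.13), Zbp1 (0.62, SE 0.12), a sensor of Z-form nucleic acid, and Dtx3l (-0.22, SE 0.04). The day effect in HNKO livers was called for 20 of the 56, against 7.9% of all genes, and that in WT livers for 1, against 5.84%. Median log2 fold changes of the list were 0.07, 0.115, -0.08, and 0.05 at days 3, 6, 12, and 21.

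Of 31 GTPases and antigen processing genes that interferon gamma induces, 4 were higher at day 6 (Ciita, Cxcl10, Gbp2, and Gbp9), against 8.42% of all genes. In the average 6 were higher, led by Ciita (0.91, SE 0.14), the regulator of MHC class II genes, and 6 were lower, led by Gbp3 (-0.39, SE 0.09), near the 19.2% and 17.3% of all genes. At day 12 Ciita was higher and Gbp3 and Gbp7 lower (against 4.56% and 3.27%), at day 3 Gbp4 was lower (against 1.71%), and at day 21 0 were called.

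The day 6 counts rested in part on single livers. Leaving out each of the 9 livers of day 6 in turn, an alternative added after seeing the data, gave 3 to 11 higher genes for the other type I targets (3 without library 8 or 29), 2 to 6 for receptors and JAK-STAT (2 without library 29), 2 to 7 for the sensors (2 without library 10 or 29), and 2 to 6 for the interferon gamma targets. Over all genes the share called higher ran from 4.51% to 9.72% in these fits. Leaving out each of the 11 livers of day 12 gave 2 to 5 lower type I targets (2 without library 14, 15, 33, or 35), 1 to 3 higher genes for receptors and JAK-STAT (1 without library 13, 16, 33, or 34), and 1 to 4 lower interferon gamma targets (1 without library 14, 16, or 35, and 4 without library 32). Ciita lost its call at day 12 without library 11, 12, 13, 15, 16, 33, or 34, and Irf8 without library 12, 13, or 33. Over all genes 1.37% to 3.38% were lower and 2.54% to 5.28% higher in these fits.

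**Figure D4:**
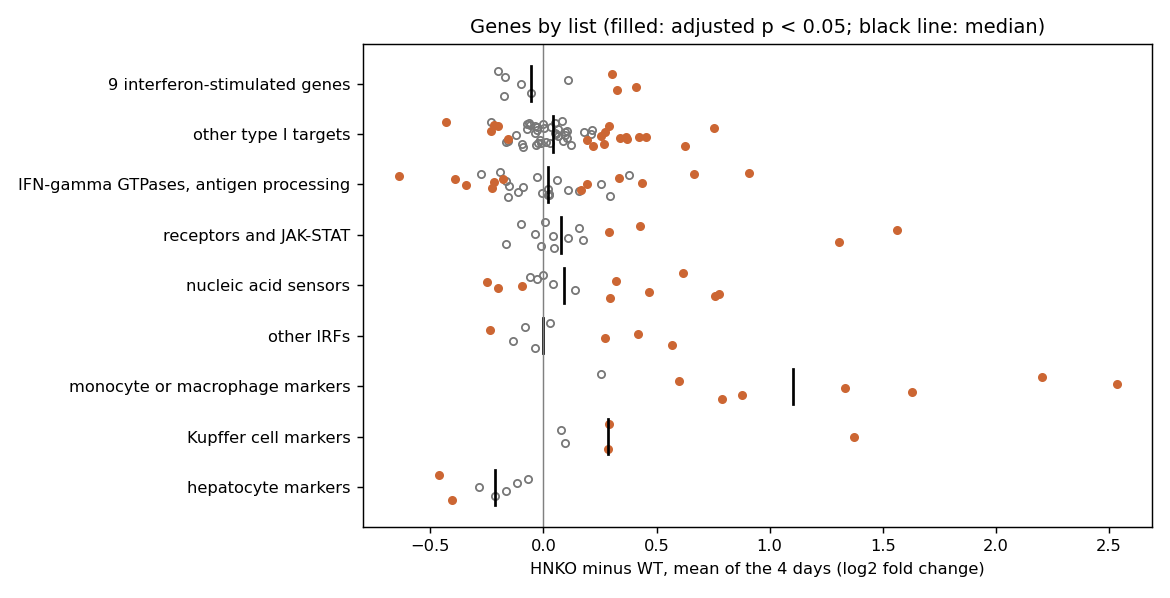
Log2 fold change of HNKO against WT in the mean of the 4 days (horizontal axis) for each tested gene of the lists (1 line per list), with genes of an adjusted p under 0.05 filled and the median of each list as a black line. The 9 interferon-stimulated genes and the other pathway lists have medians between -0.06 and 0.09, whereas 7 of 8 monocyte or macrophage markers are filled on the right.

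In the average over the days, 7 of 8 markers of recruited monocytes or macrophages were higher in HNKO livers, with a median log2 fold change of 1.10, and so were 5 of 5 tested neutrophil markers, 3 of 5 Kupffer cell markers (Cd5l, Marco, and Vsig4), 3 of 5 plasmacytoid dendritic cell markers (Cox6a2, Klk1, and Siglech), 5 of 5 cholangiocyte or progenitor markers, and 1 of 8 T or NK cell markers (Ncr1), against 19.2% of all genes. In the same average 2 of 7 hepatocyte markers (Alb and Ttr) and 2 of 5 sinusoidal endothelial markers (Kdr and Oit3) were lower, against 17.3% of all genes, 3 of 5 stellate cell markers were higher (Dcn, Des, and Pdgfrb) and 1 lower (Reln), and 0 of 4 B cell markers passed the test. At day 6, 8.42% of all genes were higher in HNKO livers and 4.37% lower. At that day 7 of 8 markers of recruited monocytes or macrophages were higher (summed level 198 to 480.7 CPM in HNKO against 122.4 to 154 in WT livers). So were 5 of 5 tested neutrophil markers (7.41 to 29.6 against 0.969 to 1.78, with Ly6g at 0 in all WT livers of day 6). The hepatocyte markers Alb and Ttr were lower (summed level of the 7 markers 66680 to 114000 against 128800 to 140900). Library 29, the HNKO liver with the highest Ifit2, Isg15, Oasl1, Oas1a, and Rsad2 at day 6, had the highest summed monocyte and neutrophil markers of its group (480.7 and 29.6 CPM) and the lowest hepatocyte markers (66680 CPM). It was also the lowest HNKO liver of day 6 for Ifit3, Irf7 (5.82 log2 CPM), and Usp18 (4.12), and the lowest but one for Ifit1 (4.26). Of 5 markers of plasmacytoid dendritic cells, the main producers of type I interferon, 2 were higher at day 3 (Klk1 and Siglech) and 1 at day 6 (Siglech). At day 12 it was 1 (Cox6a2), and at day 21 it was 2 (Klk1 and Siglech). Of all genes, 2.95%, 8.42%, 4.56%, and 2.21% were higher at these 4 days. Klk1 and Cox6a2 had low mean levels of -1.98 and -2.32 log2 CPM, and Siglech had 0.38. The summed level of the 5 markers overlapped between the genotypes at all 4 days (6.82 to 9.02 against 4.38 to 7.13 CPM at day 6). At day 6, 0 of 5 Kupffer cell markers passed the test (508.7 to 640 against 399.4 to 515.4, with all 5 estimates above 0 and a median of 0.38). Of T or NK cell markers 0 of 8 passed (5.99 to 9.33 against 4.63 to 7.54, with all 8 estimates above 0 and a median of 0.46). Of B cell markers 0 of 4 passed (5.71 to 7.37 against 5.01 to 8.06). Cholangiocyte or progenitor markers were higher for 4 of 5 (164 to 751.2 against 34 to 46 CPM), of stellate cell markers only Pdgfrb was higher (457.3 to 533.2 against 438.2 to 507.9), and of sinusoidal endothelial markers Kdr and Oit3 were lower (417.6 to 512.6 against 499.5 to 533.3). The part of these cells in the levels of the 9 genes was not tested.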

How the data were processed

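Liver RNA of HNKO and WT mice was measured in 40 libraries, each labelled with genotype, day, and library number. Per the submitters' processing notes and the methods, alignment to GRCm38 was by STAR 2.7.2b, featureCounts 1.6.4 summed read pairs with both mates aligned over GENCODE M22 genes, and edgeR 3.26.0 was used for tests. The authors deposited whole-number counts that were not normalized, as a single table with 0 columns of no mapped sample. Identifiers were matched to symbols for 55394 genes, and positions were taken from GENCODE M21 of the same build.

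Genes were kept by edgeR's filter (minimum count 10, minimum total 15, minimum proportion 0.7), counts were scaled by TMM, and 1 mean per genotype and day was fitted to the 38 libraries with edgeR 4.0.16 in R 4.3.3 (legacy computation). P-values were adjusted by Benjamini-Hochberg over all 20297 tested genes, and 0.05 was the threshold. The depth of 16151037 to 64181492 counts per library and 3 to 6 livers per group set the precision. SE are those the test statistic implies. Exact permutation tests and correlations used log2 CPM (scipy 1.17.1). Fits were tested on simulated data. P-values of the fits judge a difference against the spread between mice of a group, estimated over all groups with information shared between genes. Those of the permutation tests come from reshuffled livers.

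The members and all lists were chosen with earlier results of these data known. By rule, all 9 members, Nampt, up to 3 called genes per list with the smallest p in the average, near copies of members, and the 10 genes most like the members were named. Other called genes of the lists were named after their values were seen. So were genes named for their role (Ifnar1, Ifnar2, Stat2, Irf9, Ifih1, Cgas, Ifnk, Ifnb1, and Ifng). Alternatives were RLE scaling, DESeq2 1.42.0, 2 other filters, all 40 libraries, the 2 groups of a day alone, the edgeR 4 computation, robust estimation, the library series as a covariate, a prior count of 0.5, and leaving out each library.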

Additional observations from a re-analysis of the deposited data

Results flagged for a closer look

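Of 63 groups of 4 to 6 livers tested for a value far from the rest, 4 had one, and chance alone gives about 1 in 20. In HNKO livers of day 6, library 29 had 4.65 log2 CPM of Ifit2 where the others had 4.10 to 4.17. In HNKO livers of day 12, library 13 had 4.53 log2 CPM of Ifit3 where the others had 3.71 to 4.02, and library 32 had 3.41 log2 CPM of Oasl1 where the others had 3.98 to 4.26. In WT livers of day 21, library 19 had 1.31 log2 CPM of Oas1a where the others had 2.12 to 2.20.

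The HNKO libraries 17 and 18 of day 21, which failed quality control, entered only the alternative fits with all 40 libraries and exceeded all WT livers of day 21 for several genes, on a scale computed over all 40 libraries. Ifit2 was 4.15 log2 CPM in library 17 and 4.47 in library 18, where WT livers had 3.15 to 3.83. Oas1a was 3.53 in library 17 and 3.58 in library 18, where WT livers had 1.31 to 2.20. In library 18, Isg15 was 3.15 (WT 2.34 to 2.58), Irf7 was 5.90 (WT 4.95 to 5.56), and Oasl1 was 4.17 (WT 3.52 to 3.92). In library 17, Rsad2 was 4.34 (WT 3.80 to 4.11), whereas Ifit3, Irf7, Oasl1, and Usp18 were below all WT livers and Isg15 had 0 counts. The 2 failed libraries held 12287423 and 15935527 counts, both fewer than any library used.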

How the results depend on the processing

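Of 2106 recomputed fold changes of the 9 genes between HNKO and WT livers, 2062 kept their side of the threshold and their direction or had none to lose, 23 lost a call, 21 gained one, and 0 called values changed sign. Among the 2062 were 50 values without a call in either fit that changed sign. The day effect of Isg15 in HNKO livers was lost with all 40 libraries (adjusted p = 0.314), and that of Rsad2 was gained with the library series as a covariate (0.0438). The number of genes called at day 6 (1) became 0 with no filter, with all 40 libraries, and with only the 2 groups of the day. At day 12 (1) it became 2 with DESeq2, with the edgeR 4 computation, and with the library series as a covariate, Ifit3 being added each time. At day 21 (0) it became 2 with all 40 libraries (Ifit2 and Oas1a). The number with a day effect in WT livers (1) became 4 with DESeq2, 0 with no filter, 0 with all 40 libraries, and 3 with the library series as a covariate. The average over the days (3) became 4 with all 40 libraries (Ifit3 added) and with the library series as a covariate (Usp18 added). With 1 library left out, the counts ran from 0 to 1 at day 6, 1 to 2 at day 12, 3 to 5 in the average over the days, 0 to 2 for the day effect in WT, and 5 to 6 for that in HNKO livers, and stayed at 0 at days 3 and 21 and for the interaction. Of 2484 recomputed changes from day 3, an alternative chosen after seeing the data, 18 lost a call, 14 gained one, 0 called values changed sign, and 31 without a call in either fit did. The number called in WT livers became 1 with DESeq2 (Ifit2) at day 12, where it was 0, and 2 with DESeq2 and with the library series as a covariate at day 21 (1), Ifit3 being added. In HNKO livers at day 21 (0) it became 1 with DESeq2 (Ifit1) and 2 with all 40 libraries (Ifit1 and Ifit3). With 1 library left out these numbers ran from 0 to 1 (WT, day 12), 0 to 2 (WT, day 21), 2 to 5 (HNKO, day 12), and 0 to 1 (HNKO, day 21), and stayed at 0 at day 6. Causes were not tested. A prior count of 0.5 moved 0 of 72 group means by more than 1 SD. No paired analysis was possible because every library has its own number and the groups share none. At 3 to 6 livers per group, the SE of a single day's log2 fold change was 0.13 (Ifit3, day 12) to 0.25 (Rsad2, day 21), which limits what a single day can show.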
